A study of Caenorhabditis elegans with 46 samples.

Results

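The microRNA hairpins miR-78, miR-798, miR-789-1 and miR-789-2 of Caenorhabditis elegans were chosen by the oxidised against untreated values of the same libraries, in which earlier results had arms of these hairpins kept through chemical oxidation in worms that have HENN-1, an enzyme that methylates small RNAs. Every arm of these hairpins listed in the deposited tables was taken, ignoring the case of the name, which gave 7 arms of 4 hairpins out of 473 worm arms. The 7 arms were miR-78-5p, miR-78-3p, miR-798-3p, miR-789-1-5p, miR-789-1-3p, miR-789-2-5p and miR-789-2-3p. Of these, 6 passed the filter on low counts and were among the 395 arms fitted. miR-78-5p did not pass, with 1 count in 1 untreated wild type library, 2 counts in an oxidised library of line MLC890 and 0 counts in the other 44. Those values are given as a description with no test, and tests were made only on untreated libraries.

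Small RNA of 18 to 30 nt from whole larvae of the L1 stage was sequenced in 46 libraries, which held 11 genotypes, each untreated and treated with sodium periodate. Wild type N2 worms carried no transgene, and the other 10 genotypes carried Ath-HEN1, the plant small RNA methyltransferase, under a driver. With henn-1 intact these were the myo-3:Ath-HEN1 lines MLC889 and MLC890 and the ASE:Ath-HEN1 lines MLC702 and MLC703. With the null allele henn-1(0) they were lines with the drivers rps-5 (MLC557 and MLC558), myo-2, ASE, elt-2, rab-3, rgef-1, unc-31 and myo-3, so that the lines without HENN-1 all carried the plant enzyme and no henn-1(0) genotype without it was analysed here. Each genotype had 2 libraries per treatment, and rps-5 had 3, of which 2 came from line MLC558. That gave 6 libraries per treatment with henn-1 and 17 without.

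HENN-1 methylates the last nucleotide of the worm's piRNAs, which are called 21U-RNAs, and of certain other small RNAs, and most animal microRNAs do not carry this mark. Periodate attacks an unmethylated end, after which the molecule no longer enters a library, so the share of a methylated RNA rises. The drivers set where the plant enzyme acts: rps-5 in most cells, rab-3, unc-31 and rgef-1 in neurons, elt-2 in the intestine, myo-2 in pharyngeal muscle, myo-3 in body wall muscle and ASE in a pair of taste neurons. miR-78, miR-798 and miR-789 are annotated as microRNAs, and a target or process for them is not described here.

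All 4 hairpins lie on chromosome IV of build WBcel235. mir-78 (15165647 to 15165742, plus strand) lies between genes. mir-798 (14277312 to 14277387, minus strand) lies in an intron of ilcr-1 on the opposite strand. mir-789-1 (16740693 to 16740789, minus strand) overlaps an exon of Y51H4A.24 on the same strand and an intron of Y51H4A.25 on the other. mir-789-2 (17309307 to 17309403, minus strand) lies in an intron of T28F3.9 on the opposite strand. The annotated miR-78-3p and miR-798-3p are 21 nt long, the 5p arms of miR-789 22 nt and its 3p arms 23 nt. Both miR-789 loci give nearly the same 3p values: their counts were fractional in 42 of 46 libraries, equal in 18, and differed by at most 18 counts or 0.514%, so miR-789-1-3p and miR-789-2-3p were read as 1 measurement. The 5p arms of the pair had whole counts in every library and could be told apart.

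Depth differed strongly between the groups compared. Untreated libraries held 10674772 to 43302426 counts. Oxidised libraries with henn-1 held 425711 to 1444791 and those without it 1011043 to 35253784, where the ASE henn-1(0) pair was the shallowest with 1011043 and 1055616. Values are given as counts per 1000000 worm microRNA counts (CPM), which is a share of the library. Fitted effects are log2 of oxidised over untreated after TMM scaling in 1 edgeR model of all libraries. Their standard error (SE) is approximate: the absolute effect divided by the square root of the edgeR F statistic. The median effect of the 395 arms in each genotype was then taken off, which the SE does not cover. That median ran from -2.20 in wild type to 0.50 in the rps-5 lines, RLE factors (DESeq2's kind of scaling) moved it by up to 2.39 and total counts by up to 2.09, and the members' effects relative to it moved by at most 0.14. The driver checks were high where labelled: lsy-6-3p, of the left ASE neuron, was 5.19 above the median arm in the ASE henn-1(0) lines, miR-1-3p, of muscle, 5.23 in the myo-3 henn-1(0) lines, and miR-60-3p, of the intestine, 2.90 in the elt-2 lines. miR-124-3p, of neurons, was 1.02 above it in the rab-3, 1.86 in the unc-31 and 2.36 in the rgef-1 lines. RNA came from whole worms, so fewer cells with an RNA and less of it per cell cannot be told apart.

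The share of miR-78-3p was higher after oxidation in the 3 genotypes with henn-1 and lower in the 8 without it. In wild type worms its counts were 1621 and 739 in the untreated libraries and 4658 and 6945 in the far shallower oxidised ones. As shares, these were 42.4 and 20.5 CPM before and 10942 and 8200 CPM after, a ratio of the means of 304. The myo-3 lines with henn-1 went from 28.1 and 52.5 CPM to 1381 and 2811 CPM, a ratio of 52.0. The ASE lines with henn-1 went from 27.6 and 16.3 CPM to 10145 and 4030 CPM, a ratio of 322. In each of these 3 genotypes both oxidised libraries lay far above both untreated ones.

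Without HENN-1 almost no miR-78-3p remained after oxidation. The 3 rps-5 libraries held 98, 221 and 304 counts untreated and 0, 1 and 1 oxidised. Over the pooled libraries the untreated share was 252 times the oxidised share, with a 95% interval of 69.3 to 2082 that covers counting error only. The rab-3 lines kept the largest number of counts, 69 and 8 in oxidised libraries against 380 and 711 untreated, and the untreated share there was 12.7 times the oxidised one. The elt-2 lines kept 1 and 4 counts, the myo-2 lines 1 and 1, the myo-3 lines 2 and 3, the rgef-1 lines 2 and 8, and the unc-31 lines 12 and 2. The ASE lines stood apart, with 12 and 5 counts in the shallowest henn-1(0) libraries, equal to 11.9 and 4.74 CPM against 17.05 and 10.4 CPM untreated. There the untreated share was only 1.65 times the oxidised share, and the untreated and oxidised libraries overlapped. The driver checks of muscle and intestine were also little lower after oxidation in these lines. Oxidised over mean untreated share was 0.346 to 0.866 for miR-78-3p, 0.554 to 0.804 for miR-1-3p and 0.512 to 0.739 for miR-60-3p. The neuronal checks lsy-6-3p and miR-124-3p were higher.

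The share of miR-798-3p was also higher after oxidation in the 3 genotypes with henn-1 and lower in the 8 without it. In wild type worms its counts were 361 and 287 untreated and 1214 and 2317 oxidised, which are 9.44 and 7.96 CPM before and 2852 and 2736 CPM after. The oxidised share was 321 times the untreated share in wild type worms, 54.0 times in the myo-3 pair that has henn-1 and 313 times in the ASE pair that has it. In the last of these the oxidised libraries stood at 5171 and 4335 CPM, above both wild type libraries, whereas for miR-78-3p these genotypes overlapped.

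In the rps-5 lines miR-798-3p had 193, 288 and 329 counts untreated and 0, 1 and 3 oxidised, a share 152 times as high before oxidation. In the other henn-1(0) genotypes with a neuronal, intestinal or muscle driver other than ASE, the oxidised libraries held 1 to 21 counts. The untreated share was 8.60 times the oxidised share in the unc-31 lines, 25.0 times in rgef-1, 32.0 times in myo-2, 32.1 times in elt-2, 32.6 times in rab-3 and 45.6 times in myo-3. The ASE henn-1(0) lines again differed least, going from 19.0 and 28.5 CPM to 15.8 and 11.4 CPM, a ratio of 1.75.

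**Figure D1:**
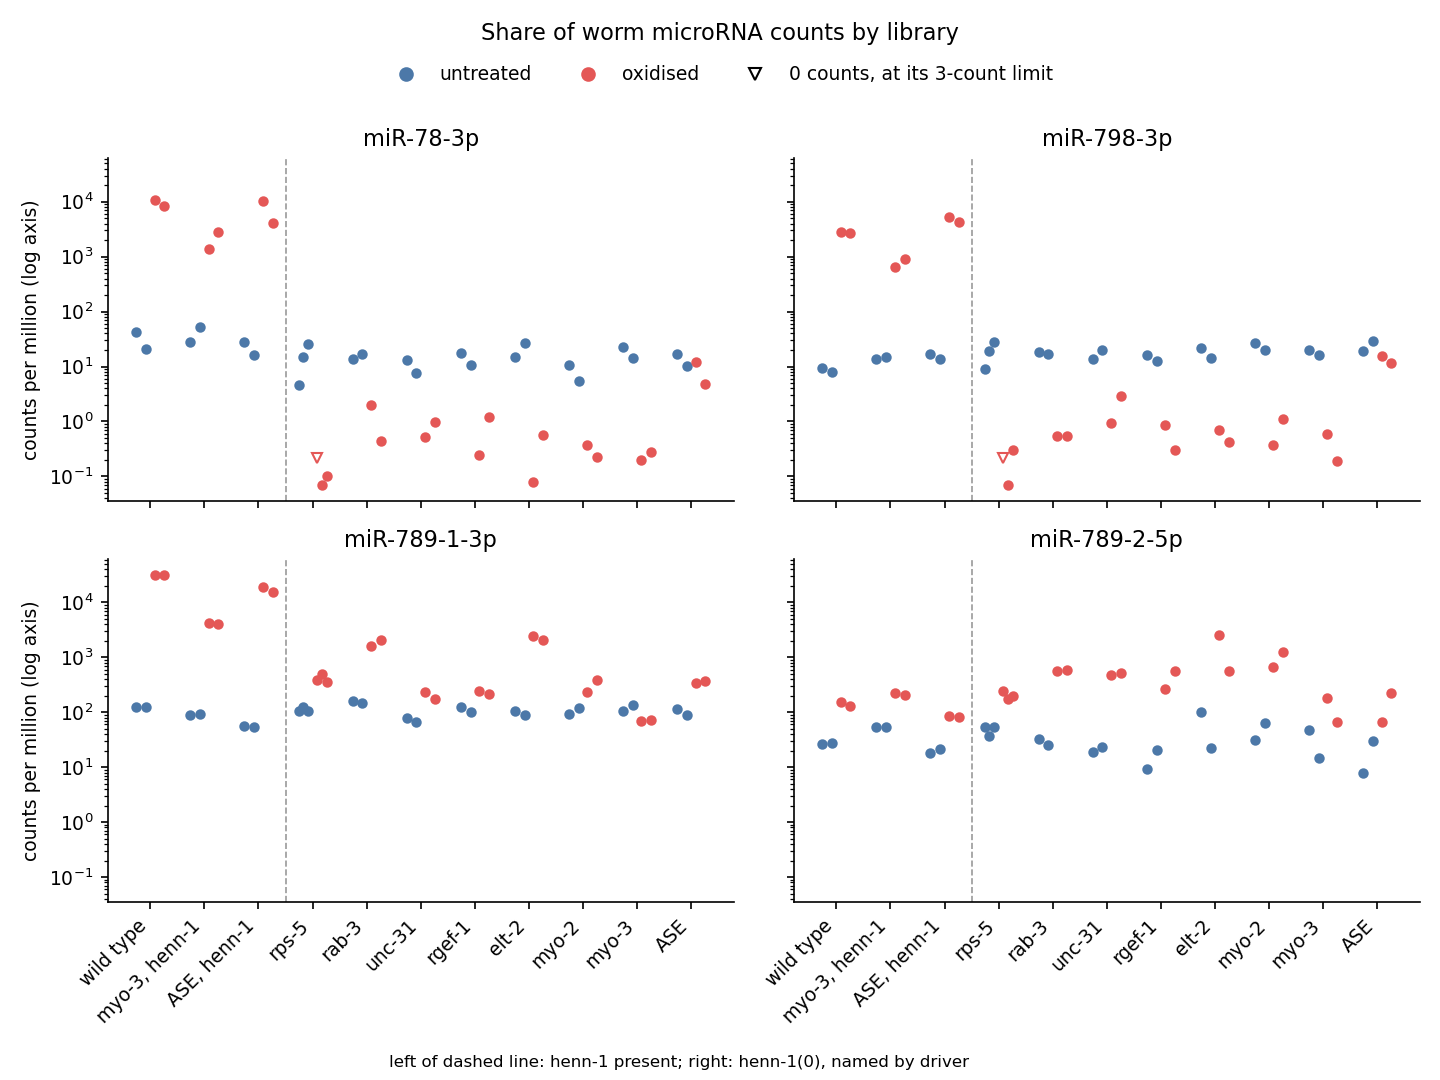
Share of worm microRNA counts in each library (CPM, log axis) for 4 arms in 11 genotypes; each point is 1 library, blue untreated and red oxidised, and open triangles mark libraries at 0 counts, drawn at their 3-count limit. For miR-78-3p and miR-798-3p the 6 oxidised libraries with henn-1, left of the dashed line, lie at 637 CPM or more and the 17 without it at 15.8 or less, the nearest libraries for miR-789-1-3p are at 3973 and 2408, and the groups overlap for miR-789-2-5p.

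Over all oxidised libraries, miR-78-3p had a lowest, median and highest share of 1381, 6115 and 10942 CPM with henn-1 and of 0, 0.369 and 11.9 CPM without it. The lowest library with henn-1 was thus 116 times the highest library without. For miR-798-3p the same values were 637, 2794 and 5171 CPM with henn-1 and 0, 0.545 and 15.8 CPM without, and the nearest libraries differed 40.3-fold. Every library with henn-1 lay above every one without it for 41 of the 395 arms (10.4%), among them 4 of the 6 fitted members, which are 3 measurements because the 3p arms of miR-789 share reads. Libraries with henn-1 lay below all others for 0.506% of arms and for no member. The rule used this contrast, so nothing is read from these counts.

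Relative to the median arm, the fitted oxidation effect of miR-78-3p was 8.30 ± 0.77 (SE, n = 2 libraries per treatment) in wild type worms, 6.60 ± 0.75 in the myo-3 pair with henn-1 and 8.21 ± 0.78 in the ASE lines with henn-1. In the 8 henn-1(0) genotypes it ran from -8.68 ± 0.87 in the rps-5 lines (n = 3) to -0.75 ± 0.75 in the ASE lines, with a median of -4.39. For miR-798-3p the effects were 8.41 ± 0.57, 6.65 ± 0.56 and 8.24 ± 0.57 with henn-1. Without it they ran from -8.09 ± 0.59 in the rps-5 lines to -0.87 ± 0.52 in the ASE lines. In the other 7 henn-1(0) genotypes both arms lay at -3.19 or lower. Of the driver checks in the ASE henn-1(0) lines, miR-1-3p stood at -0.60, miR-60-3p at -0.75, miR-124-3p at 2.30 and lsy-6-3p at 5.19.

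**Figure D2:**
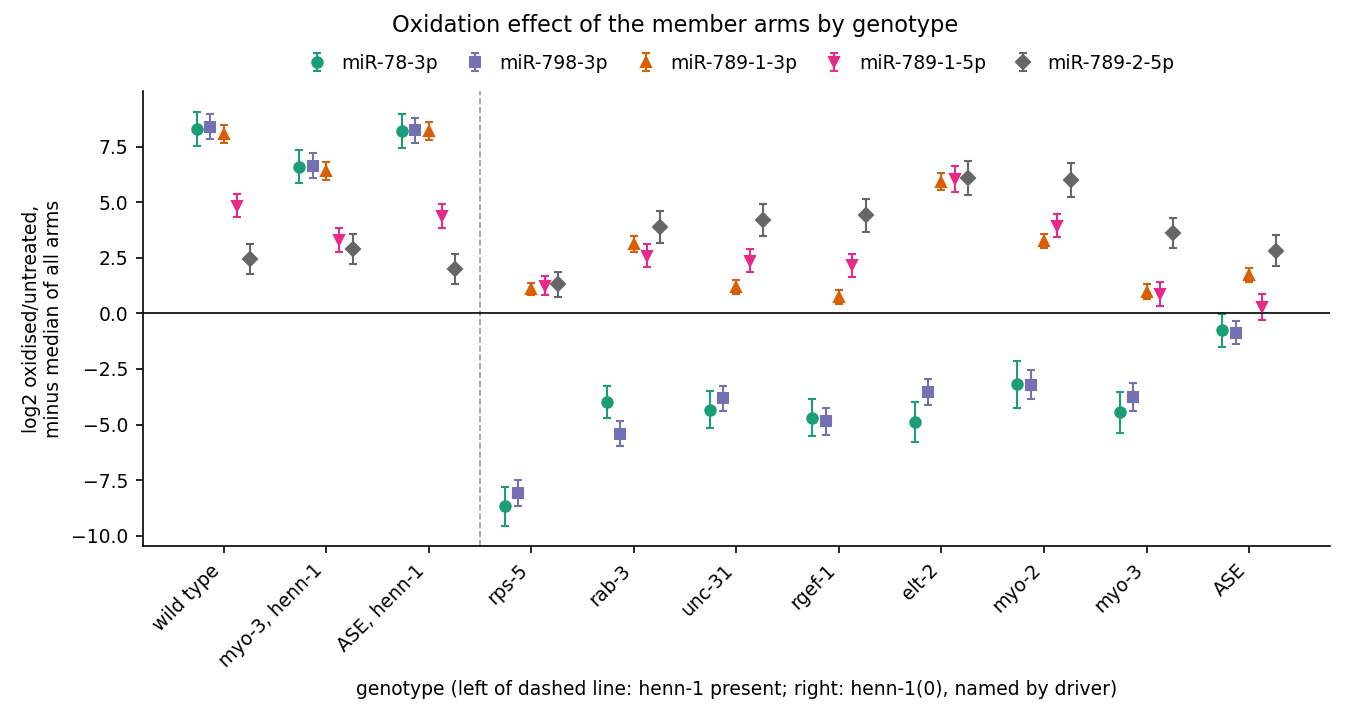
Log2 oxidised over untreated for 5 arms, less the median of the 395 fitted arms in each genotype; points are edgeR estimates, bars 1 SE, and the dashed line parts genotypes with henn-1 from henn-1(0). miR-78-3p and miR-798-3p lie between 6.60 and 8.41 on the left and between -8.68 and -0.75 on the right, and the 3 arms of miR-789 lie above 0 throughout.

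The myo-3 and ASE lines gave the contrast within 1 driver. For myo-3, the effect of miR-78-3p without henn-1 minus that with henn-1 was -11.79 ± 1.16 on the log2 scale, and that of miR-798-3p was -11.16 ± 0.83. For ASE the differences were -7.71 ± 1.03 and -7.86 ± 0.75. RLE factors moved the ASE differences to -9.70 and -9.78, while the median difference of all arms went from 2.05 to 0.19. They moved the myo-3 differences to -10.8 and -10.2, while that median went from -0.03 to 0.91. Lines with and without henn-1 were separate strains (MLC889, MLC890 and MLC900, MLC901; MLC702, MLC703 and MLC749, MLC750).

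The 3p arm of miR-789 parted less by henn-1 than miR-78-3p and miR-798-3p did. With henn-1 its oxidised share was higher than its untreated share, and without henn-1 it was higher too in 7 of 8 genotypes. All 8 carried Ath-HEN1, so what remains without either enzyme cannot be read here, and the part of the plant enzyme was not tested. In wild type worms miR-789-1-3p went from 127 and 125 CPM to 31798 and 32140 CPM, a ratio of 253. The ASE lines with henn-1 reached 18989 and 15505 CPM, a ratio of 312, and MLC889 and MLC890 (myo-3) reached 4270 and 3973 CPM, a ratio of 45.3. All 6 lay above every untreated library.

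Among the henn-1(0) genotypes the elt-2 lines kept most miR-789-1-3p, with 2408 and 2102 CPM oxidised against 104 and 88.1 CPM untreated, a ratio of 23.4. The rab-3 lines followed with 1577 and 2070 CPM oxidised against 161 and 147 CPM, a ratio of 11.8. The ranges of these genotypes did not overlap each other or any other genotype. The rps-5, ASE, myo-2, rgef-1 and unc-31 lines each overlapped the next in this order, with means of 412 ± 69.9 (SD, n = 3), 352 ± 20.6, 314 ± 108, 232 ± 23.3 and 204 ± 37.6 CPM (n = 2 each). The myo-3 henn-1(0) lines alone had a lower share after oxidation, going from 107 and 138 CPM to 68.2 and 72.8 CPM, a ratio of 0.576.

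The split by henn-1 was therefore narrow for this arm. The lowest oxidised library with henn-1 held 3973 CPM and the highest without held 2408 CPM, a 1.65-fold difference. On the fitted scale, the myo-3 lines with henn-1 stood at 6.41 ± 0.39 above the median arm and the elt-2 henn-1(0) lines at 5.93 ± 0.37, which differ by less than the sum of their SEs. Within 1 driver the differences, without minus with henn-1, were wider, at -6.16 ± 0.50 for myo-3 and -5.25 ± 0.49 for ASE. The effect in the myo-3 henn-1(0) lines, -0.74 ± 0.33 before the median was taken off, had the opposite sign with RLE factors, since there the median arm stood at -1.72 under TMM scaling and at -0.02 with RLE.

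Over all genotypes the 5p arms of miR-789 overlapped between worms with and without henn-1. miR-789-1-5p went from 7.87 and 7.32 CPM to 237 and 184 CPM in wild type worms, but reached 448 and 138 CPM in the elt-2 henn-1(0) lines, from 18.7 and 5.01 CPM. Its lowest, median and highest oxidised shares were 34.6, 137 and 237 CPM with henn-1 and 3.54, 35.8 and 448 CPM without, which overlap. Relative to the median arm its effects were 3.28 to 4.85 with henn-1 and 0.30 to 6.05 without, highest in the elt-2 lines. Within the matched drivers its effect was lower without henn-1, by a difference of -3.14 ± 0.75 for myo-3 and of -2.84 ± 0.78 for ASE, or -4.78 for ASE with RLE factors.

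For miR-789-2-5p the median was higher without henn-1. Its oxidised shares had a lowest, median and highest value of 81.3, 140 and 226 CPM with henn-1 and of 66.1, 476 and 2559 CPM without, which overlap. In wild type worms it went from 26.9 and 27.5 CPM to 153 and 128 CPM, and in the myo-2 henn-1(0) lines from 31.9 and 64.3 CPM to 667 and 1255 CPM. Its effects relative to the median arm were 2.01 to 2.90 with henn-1 and 1.31 to 6.09 without, highest in the elt-2 lines at 6.09 ± 0.76. The elt-2 pair was itself uneven: line MLC559 held 101 CPM untreated and 2559 CPM oxidised, and line MLC631 held 22.3 and 565 CPM. The matched-driver differences of miR-789-2-5p, without minus with henn-1, were 0.00499 ± 0.92 for myo-3 and 2.05 ± 0.95 for ASE, the latter 0.19 with RLE factors.

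The ratio of 3p to 5p counts of miR-789 needs no scaling of the library. Both loci were summed for it. In untreated libraries the ratio had a lowest, median and highest value of 2.95, 4.26 and 7.31 with henn-1 and of 1.74, 5.87 and 16.3 without, so the groups overlapped. After oxidation it was 32.5, 157 and 206 with henn-1 and 0.5999, 2.10 and 8.54 without. In wild type worms it went from 7.31 and 7.205 to 163 and 206, in the ASE lines with henn-1 from 4.62 and 3.89 to 150 and 167, and in the myo-3 lines with henn-1 from 2.95 and 3.00 to 32.5 and 33.1.

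All 6 oxidised libraries with henn-1 thus had a higher ratio than all 17 without. In henn-1(0) worms the mean ratio went from 5.17 to 0.753 in the unc-31 lines, in the rgef-1 lines from 11.9 to 1.18, in the myo-2 lines from 3.97 to 0.643 and in the myo-3 lines from 7.71 to 1.42, with no overlap between treatments in these 4 genotypes. In the rab-3 lines it was 8.17 before and 5.61 after, with no overlap, and in the rps-5, elt-2 and ASE lines the treatments overlapped. Within a line the ratio was lower after oxidation in all 15 henn-1(0) lines with 1 library of each treatment, by little in the elt-2 lines (from 1.74 to 1.602 in MLC559 and from 6.45 to 5.98 in MLC631). Line MLC558 (rps-5) had 2 libraries of each, at 3.16 and 3.34 untreated and 2.66 and 3.19 oxidised, and the labels do not pair them. The ratio uses the libraries that chose the members and is a description. How many other hairpins part by henn-1 in this ratio, or have it lower in the henn-1(0) lines, is not given here, so neither result is read as particular to miR-789. Of 105 hairpins with both arms counted in wild type worms, miR-789-2 had the seventh and miR-789-1 the fourteenth largest shift towards its 3p arm, by 5.63 and 3.20 on the log2 scale.

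**Figure D3:**
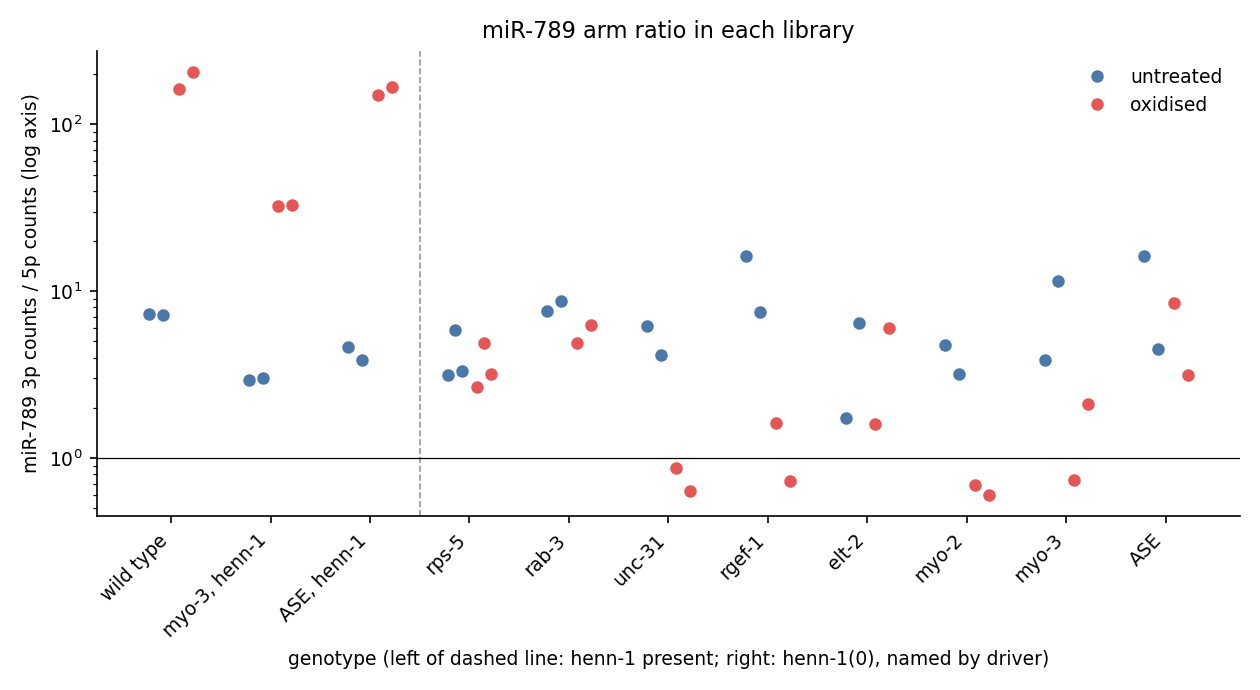
Counts of the 3p arm of miR-789 divided by those of its 5p arm, both loci summed, in each of the 46 libraries (log axis); blue is untreated and red oxidised, and the line at 1 marks equal counts. Oxidised libraries with henn-1, left of the dashed line, lie at 32.5 to 206, and those of henn-1(0) worms at 0.5999 to 8.54.

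In untreated worms, where no periodate was used, no member passed the test of henn-1(0) lines against genotypes that have henn-1 in any of 4 comparisons (edgeR quasi-likelihood test, Benjamini-Hochberg adjustment over 395 arms, threshold 0.05). These libraries are also the denominator of the oxidation effects above. Other scaling moved the median difference of all arms by at most 0.42. Across the comparisons 0.0% of arms were called for the myo-3 driver and 0.253% for ASE, for the mean of both drivers and for all genotypes, in each case only miR-8198-5p, which was higher in henn-1(0) worms. At an unadjusted p under 0.05 there were 29, 23, 32 and 40 arms, among them both 3p arms of miR-789, which share reads and are 1 measurement, in each comparison. miR-798-3p was also among them for the mean of both drivers and, with miR-78-3p, for all genotypes. DESeq2 called 1, 1, 5 and 6 arms, all higher in henn-1(0) worms.

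The untreated difference of miR-78-3p was negative in all 4 comparisons, and it was the only member with a negative difference over all genotypes (miR-789-2-5p was also negative in the other 3). Its untreated lowest, median and highest shares were 16.3, 27.9 and 52.5 CPM in the 6 libraries with henn-1 and 4.64, 14.4 and 26.5 CPM in the 17 without. All 17 lay below the mean of the libraries with henn-1, 31.3 CPM, but the ranges overlapped. Over all genotypes the edgeR log2 difference was -1.03 ± 0.28 (95% interval -1.61 to -0.45, adjusted p = 0.112). With the transgenic line as replicate block the adjusted p was 0.0250, and without the filter on low counts the difference was -1.15 with an adjusted p of 0.0347. No other alternative fit called miR-78-3p, and the log2 difference ran from -1.18 to -0.82 over all of them. The matched drivers gave -0.69 ± 0.62 for myo-3 (adjusted p = 0.770, edgeR) and -0.74 ± 0.62 for ASE (adjusted p = 0.991, edgeR).

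miR-798-3p and the 3p arm of miR-789 lay on the other side. miR-798-3p had shares of 7.96, 13.7 and 16.8 CPM with henn-1 (lowest, median and highest) and of 9.13, 19.0 and 28.5 CPM without. The edgeR log2 difference over all genotypes was 0.67 ± 0.23 (95% interval 0.20 to 1.13, adjusted p = 0.2195), with 15 of 17 henn-1(0) libraries above the mean with henn-1. DESeq2 gave an adjusted p of 0.0147. No other alternative fit called miR-798-3p, and the log2 difference ran from 0.55 to 0.72 over all of them. miR-789-1-3p had 53.5, 91.0 and 127 CPM with henn-1 and 66.0, 106 and 161 CPM without. Over the 2 matched drivers its edgeR log2 difference was 0.84 ± 0.23 (95% interval 0.37 to 1.32, adjusted p = 0.0530), with 4 of 4 henn-1(0) libraries above the mean of the 4 with henn-1. There the adjusted p was 0.0128 in edgeR with the same replicate block of line number and 0.0116 in DESeq2. No other alternative fit called miR-789-1-3p, and the log2 difference over the 2 matched drivers ran from 0.64 to 0.91 over all of them. Over all genotypes the difference was 0.41 ± 0.16 (adjusted p = 0.324, edgeR), and the 5p arms had intervals that included 0 in all 4 comparisons.

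**Figure D4:**
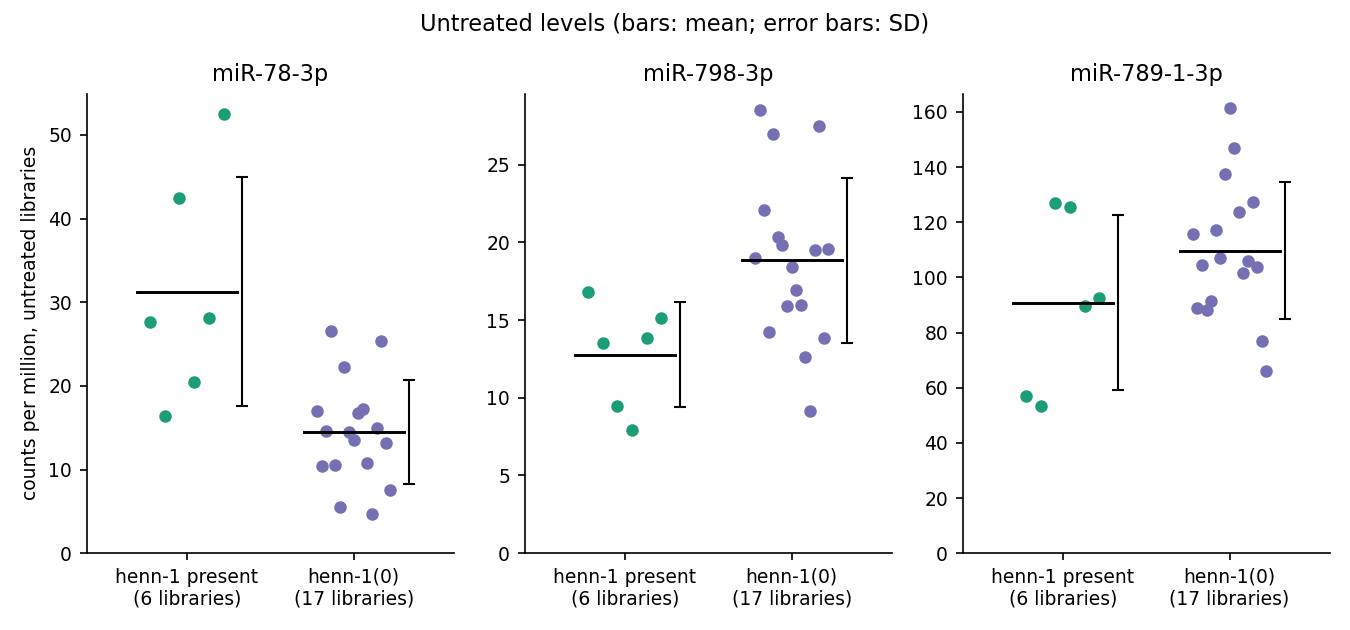
Share of counts in untreated libraries (CPM, linear axes from 0) for 3 arms; each point is 1 library, horizontal bars are means and error bars SD over 6 libraries with henn-1 and 17 henn-1(0) libraries. miR-78-3p has means of 31.3 and 14.4 CPM and miR-798-3p of 12.8 and 18.8, and the ranges overlap for each arm.

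The members whose oxidation effect parted most widely resembled each other and a small set of other arms across genotypes. Over the 11 genotypes the effects of miR-78-3p and miR-798-3p had a Pearson correlation of 0.99, and those of miR-78-3p and miR-789-1-3p one of 0.78. The points share libraries of very different depth with the henn-1 split, so these are descriptions. The 5 arms most like miR-78-3p were miR-8202-5p (0.99), miR-4936-3p (0.98), miR-1833-3p (0.97) and both arms of miR-8198 (0.98 each), and the same 5 were nearest to miR-798-3p. Without the median taken off, as in the next paragraphs, miR-8198-3p had effects of 6.00 to 6.87 with henn-1 and of -7.09 to -1.67 without, and miR-8198-5p of 6.30 to 7.37 and of -6.64 to 0.17. miR-1833-3p differed in level, since its effects were above 0 in all 8 henn-1(0) genotypes too, at 0.93 to 3.23, against 5.77 to 6.25 with henn-1. The 5 nearest to miR-789-2-3p were miR-238-5p (0.89), miR-4814-3p (0.89), miR-61-5p (0.83), miR-2219-3p (0.82) and miR-8196a-5p (0.81), none of which was in the other list.

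Other arms that earlier results had set beside the members behaved less alike. miR-62-3p, of a mirtron, a hairpin cut from an intron by splicing, had effects of 1.202 to 1.82 with henn-1 and of -3.13 to 2.63 without. miR-243-3p, which is known to be loaded into the Argonaute RDE-1, had effects of 3.97 to 4.38 with henn-1 and of 1.21 to 4.63 without, and miR-243-5p of -1.28 to 1.77 and of 1.82 to 5.10. Of 12 fitted arms from 6 mirtron hairpins, none had all genotypes with henn-1 above all without, against 4 of 6 members and 12.9% of all arms. That contrast chose the members, so the count is a description.

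The position of the hairpins was not used to choose them. Of 15363 annotated piRNA genes, 14714 (95.8%) lie on chromosome IV, as do 50 of 261 microRNA genes. Within 10 kb of mir-798 there were 89 piRNA genes, the second highest number of all microRNA genes, and within 10 kb of mir-78 there were 67, the fifth highest. mir-789-1 had 30, at rank 12, and mir-789-2 had 0, with the nearest at 11945 bp. For comparison, 219 of 261 microRNA genes had 0, the median of those on chromosome IV was 0.5, and mir-8198 had the highest number, 94. An arm of 43 hairpins, the members among them, had every effect with henn-1 above every effect without it. Of these 43 hairpins 11 had a piRNA gene within 10 kb, against 34 of 215 tested hairpins (15.8%). The contrast that set these 43 apart also chose the members among them, so the count is a description and was not tested.

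The miR-78-3p arm itself (15165707 to 15165727, plus strand) overlaps the annotated piRNA genes 21ur-10414 (15165704 to 15165724) by 18 bases and 21ur-9780 (15165706 to 15165726) by 20 bases on the same strand. Only 3 of 261 microRNA genes overlap a piRNA gene, mir-78, mir-790 and mir-8198, and 4 of 450 annotated arms do on the same strand. Reads of miR-78-3p and of these 21U-RNAs may therefore not have been kept apart in the counts, which was not tested. miR-798-3p and the arms of miR-789 overlap no annotated piRNA gene. Of the 4 arms that do, miR-78-3p and both arms of miR-8198 had every effect with henn-1 above every effect without it, as did 12.9% of all arms. miR-78-3p was chosen on this contrast and miR-8198 was named from earlier results of these data, so the count is a description. The remaining arm, miR-790-5p, had effects of -2.86, -3.70 and 1.501 with henn-1 and of -5.22 to 5.37 without, and did not part by henn-1.

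**Figure D5:**
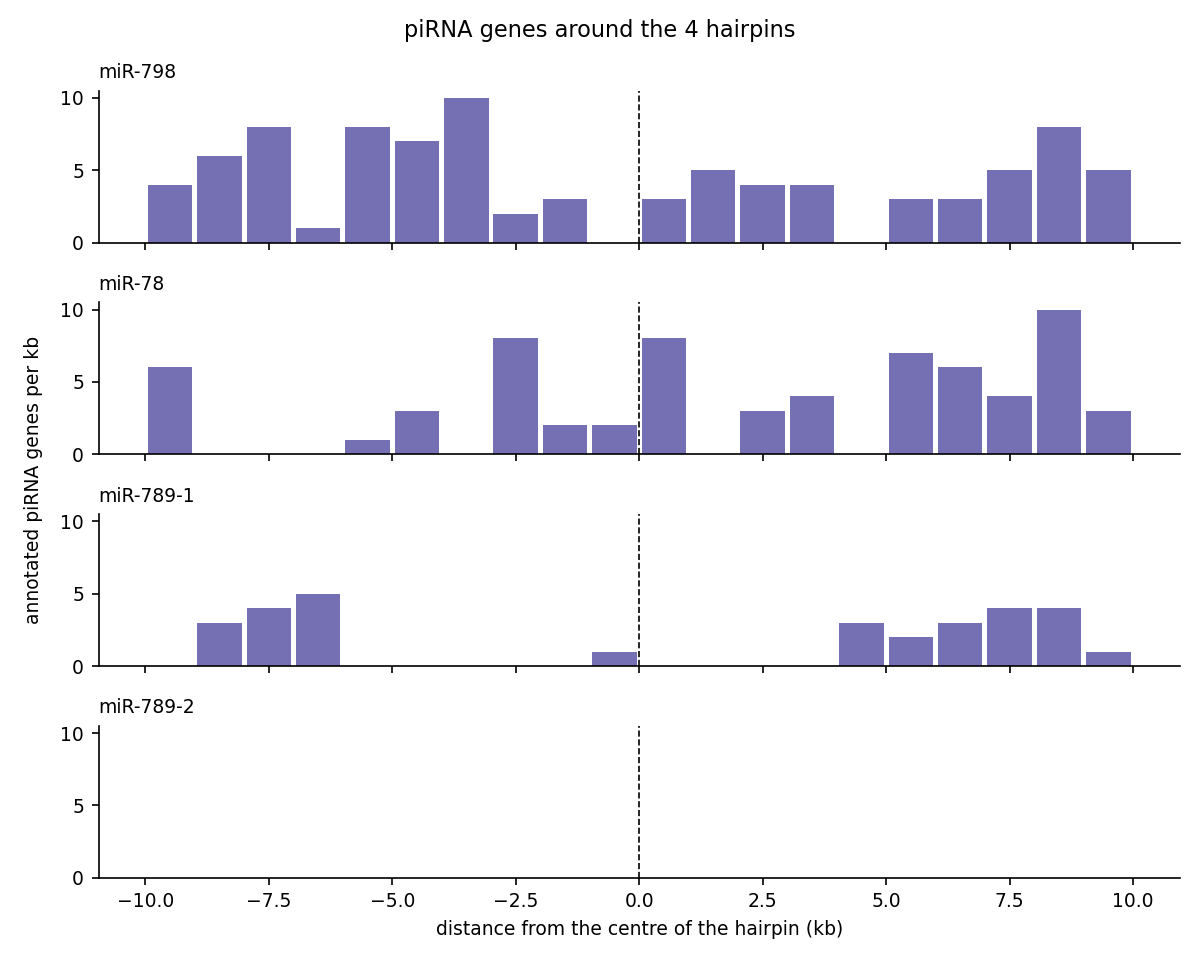
Number of annotated piRNA genes per kb (vertical axis) by distance of their centre from the centre of each of the 4 hairpins (horizontal axis, kb, along the plus strand; the dashed line marks the hairpin). The windows of miR-798 and miR-78 are filled on both sides, that of miR-789-1 mainly beyond 4 kb, and that of miR-789-2 is empty.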

How the data were processed

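Each library has a table of expected counts, 1 value per mature arm, as deposited by the authors. The submitters' processing notes name cutadapt 1.2.1, HTSeq 0.6.1p1 and build WBcel235, with no aligner given in these sources. Fractional values show reads divided between loci. Worm arms were 473 of 916 entries, and the others were 0 in every library. Depth was 10674772 to 43302426 counts untreated and 425711 to 35253784 oxidised.

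Counts were rounded and fitted in edgeR 4.0.16 (R 4.3.3) with TMM factors, a minimum count of 10 in its filter (395 arms, 99.9996% of counts), 1 coefficient per genotype and treatment and 24 residual degrees of freedom. The method was tested on simulated data. Alternatives were RLE factors, total counts, no filter, fits of the compared libraries, a replicate block, single libraries left out, DESeq2 1.42.0 for the tests, and log2(CPM + 1) for effects. Intervals and the 3-count floor cover counting error only. The design text calls replicates biological, and p-values measure the spread between these libraries.

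Members, lists and the rule for named arms (all member arms, 4 driver checks, 5 arms beside the members, the 5 arms with the most similar effects) were chosen with earlier results of these data known. miR-790-5p was named after its values were seen. Positions are from Ensembl release 115. Arms with the same seed as a member were not analysed here. Libraries of 1 transgenic line share its number: deviations of untreated and oxidised libraries correlated between -0.0019 and 0.497 over arms, and those of the ASE lines 5 and 9 between henn-1 states at -0.066.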

Additional observations from a re-analysis of the deposited data

Results flagged for a closer look

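In 10 results every oxidised library of one genotype moved the opposite way from every oxidised library of another, against the mean untreated share. These differences were not tested, because the same contrast chose the members. How many of all arms do the same is not given here, so the 10 are not read as particular to the members. The driver check miR-1-3p did so too. Its oxidised over mean untreated share was 11.0 in the myo-3 henn-1(0) lines and 0.0496 to 0.0955 in the elt-2 lines. Between henn-1(0) and henn-1 worms with the myo-3 driver, the log2 effect differed by -11.79 for miR-78-3p, -11.16 for miR-798-3p, -6.163 for miR-789-1-3p, -6.159 for miR-789-2-3p and -3.144 for miR-789-1-5p. With the ASE driver it differed by -7.713 for miR-78-3p and -7.86 for miR-798-3p. Between the elt-2 and myo-3 lines, both henn-1(0), it differed by 5.237 for miR-789-1-3p, 5.234 for miR-789-2-3p and 5.47 for miR-789-1-5p. The 3p arms of miR-789 share reads and are 1 measurement. In the myo-3 henn-1(0) lines the effects of miR-789-1-3p and miR-789-1-5p were -0.74 and -0.85, but 0.98 and 0.85 with RLE factors. The opposite direction of the miR-789 arms there thus depends on the scaling. The depth of the oxidised libraries moved with the henn-1 split, and its part in these differences was not tested.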

How the results depend on the processing

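Oxidation effects of miR-78-3p and miR-798-3p kept their sign under every alternative in all 22 cases, and those of the miR-789 arms changed sign in 5 of 44. In the untreated tests the replicate block called 6, 12 and 4 arms for ASE, both drivers and all genotypes, against 1 each, with miR-789-1-3p at 0.8388, miR-789-2-3p at 0.8389 (both drivers) and miR-78-3p at -1.031 (all genotypes) past the threshold; it changed no other call of a member. DESeq2 called 1, 5 and 6 arms for myo-3 (against 0), both drivers and all genotypes, with miR-789-1-3p at 0.8385, miR-789-2-3p at 0.8386 and miR-798-3p at 0.7184. Fits of the compared libraries called 11, 3 and 2 arms for ASE, both drivers and all genotypes, and no member. Without the filter 0 arms were called for ASE and 2 for all genotypes, with miR-78-3p at -1.15, and total counts gave 0 for ASE. Leaving out any 1 of the 4 ASE libraries, with the scaling kept, left 0 to 0 arms for ASE; the call lost was that of miR-8198-5p. Leaving out a library called no member in any comparison, and the cause of these changes was not tested. The smallest counts of miR-78-3p and miR-798-3p were in oxidised henn-1(0) libraries, where the SE of miR-78-3p reached 1.06 (myo-2), against 0.75 to 0.78 in genotypes with henn-1.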
